A study of Mus musculus with 6 samples.

Results

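The genes described here encode the proteins of the cytosolic ribosome. Cells were sorted as intestinal stem cells from mice with and without null and floxed alleles for the catalytic core of Polycomb repressive complex 1 (PRC1). Members were chosen by symbol: names of the form Rpl or Rps with a number, together with Rpsa, Rplp0, Rplp1 and Rplp2, present in both tables of the series. Where a symbol had several RefSeq entries, the entry with the highest mean was kept, which concerned 5 members. This gave 80 genes, 32 of the small subunit and 48 of the large subunit, of 16819 symbols and 18376 entries in the first table. Rps4l matched the pattern but is annotated as a transcribed pseudogene, and Rpl3l was listed in the first table alone. Both stand beside the members and are not counted among them.

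RNA was sequenced from cells sorted for GFP out of small-intestinal crypts of C57BL/6 mice. All mice carried Lgr5Gfp-CreERT2, which places GFP and a tamoxifen-activated Cre recombinase under the control of the stem cell gene Lgr5, and all received 3 tamoxifen injections, 6 days before collection. RingKO cells (2 libraries) also carried Ring1a-/- and Ring1bf/f, that is, null alleles of Ring1 and floxed alleles of Rnf2, and WT cells (2 libraries) carried neither. Bcat_RingKO cells (1 library) carried Ctnnb1-ex3 with the same Ring alleles, and Bcat cells (1 library) carried Ctnnb1-ex3 without them. Ctnnb1-ex3 is an allele of the beta-catenin gene, whose product transmits the Wnt signal. Ring1 and Rnf2 encode the ubiquitin ligases of PRC1, a silencer of developmental genes. No source used here says that libraries came from separate animals, so p-values reflect how far these particular libraries differ, and that spread may be technical.

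A ribosome joins a small subunit, which reads the messenger RNA, to a large subunit, which makes the peptide bond. Each subunit is an RNA scaffold bound by 1 copy of most of its proteins, and their genes are expressed in every dividing cell at high and closely matched levels. Their messenger RNAs typically begin with a run of pyrimidines, the TOP motif, through which the growth kinase mTORC1 controls their translation. In the crypt, dividing stem and progenitor cells depend on ribosome production. In a bulk library, fewer cells of a type and less RNA per cell cannot be told apart.

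Reads assigned to entries came to 2911422 and 2651201 in RingKO, 6753789 and 6294932 in WT, 4470853 in Bcat_RingKO and 922153 in Bcat. The letters A and B below name the libraries of a group in arbitrary order, and the reads of each were recovered from the deposited group means. Ring1 had 9 and 11 reads in RingKO, against 484 and 363 reads in WT. It had 43 reads in Bcat_RingKO and 24 in Bcat, a log2 ratio of -1.51 after scaling. Rnf2 had 142 and 103 reads in RingKO, against 220 and 246 in WT, a deposited log2 fold change of 0.16. In the Bcat pair Rnf2 had 546 reads in Bcat_RingKO and 78 in Bcat, a log2 ratio of 0.47. Reads over the whole gene do not show whether its floxed part was removed. Lgr5 had 461 and 222 reads in RingKO, 942 and 922 in WT, 1505 in Bcat_RingKO and 146 in Bcat, so the gene behind the sort was detected in every library.

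Ribosomal protein genes took a large part of each library except Bcat_RingKO. Their share of library reads was 10.5% and 9.13% in RingKO, against 8.51% and 7.82% in WT. Both RingKO libraries were above both WT libraries, and the nearest libraries of the 2 groups lay closer together than the 2 RingKO libraries did. The group means were 9.82% ± 0.976 in RingKO and 8.16% ± 0.485 in WT (SD, n = 2 each), a difference of 0.27 in log2 share. An exact permutation test gave a two-sided p of 0.333, the smallest that 2 libraries against 2 allow. The share was 1.49% in Bcat_RingKO (95% Wilson interval 1.477% to 1.499%) and 5.53% in Bcat (5.48% to 5.58%). These intervals cover counting error only. The Bcat_RingKO share was 3.72-fold lower than that of Bcat, with no replicate on either side.

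**Figure D1:**
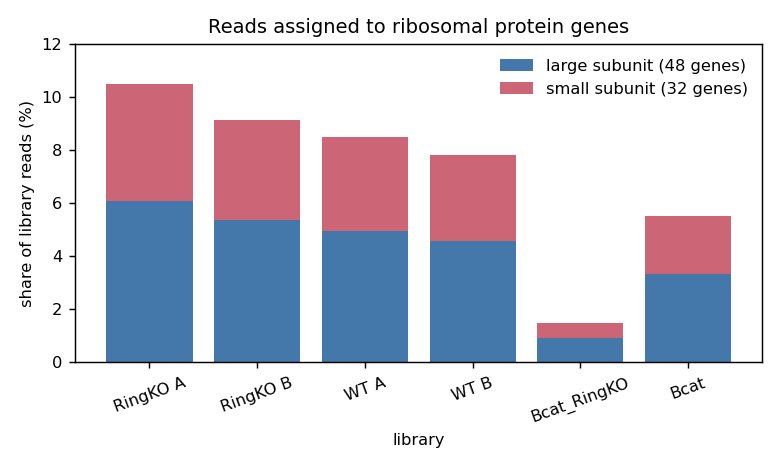
Share of library reads (%) assigned to the 80 ribosomal protein genes in each of the 6 libraries, with small and large subunit genes stacked. The 4 libraries of the first table lie between 7.82% and 10.5%, Bcat at 5.53% and Bcat_RingKO at 1.49%.

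The balance of the subunits moved less than the sum. Reads of small subunit genes divided by reads of large subunit genes gave 0.724 and 0.701 in RingKO, against 0.714 and 0.710 in WT. The RingKO values lay on either side of the WT values. The quotient was 0.622 in Bcat_RingKO and 0.663 in Bcat. Among the 100 entries with the highest values, 45 were members in RingKO, 41 in WT, 0 in Bcat_RingKO and 28 in Bcat.

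Most members were abundant, and their level was similar across the set. A group of 66 members had a WT mean of at least 1000 normalized reads. Their median level in WT was 1390 RPKM (reads per kilobase of transcript, scaled to library size), with 80% of them, between the 10th and 90th percentiles, at 635 to 2225. The highest members on this scale were Rplp1 at 3054, Rps2 at 3005, Rplp0 at 2778 and Rpl41 at 2583. Rplp1 and Rplp0 belong to the stalk of the large subunit that recruits the translation GTPases, Rps2 sits in the small subunit, and Rpl41 is the smallest protein of the ribosome. Rplp1 had 3113 and 2996 in the WT libraries, Rps2 2993 and 3018, and Rplp0 2809 and 2747. Rplp1 and Rps2 therefore overlapped between libraries, and Rplp0 lay below both. A length comes from the annotated transcript with the entry's accession, and it was 3706 nt for Rps20 and 5179 nt for Rps15a. Their per-length levels, 301.8 and 72.5, are divided by these long transcripts and may not be comparable with the rest.

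The order of the 66 levels was much the same in every genotype. The rank correlation over these genes with the WT levels was 0.98 in RingKO, 0.81 in Bcat_RingKO and 0.87 in Bcat. Bcat_RingKO and Bcat had a rank correlation of 0.94 with each other. These values describe the genes in these libraries, and all share the same transcript lengths.

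**Figure D2:**
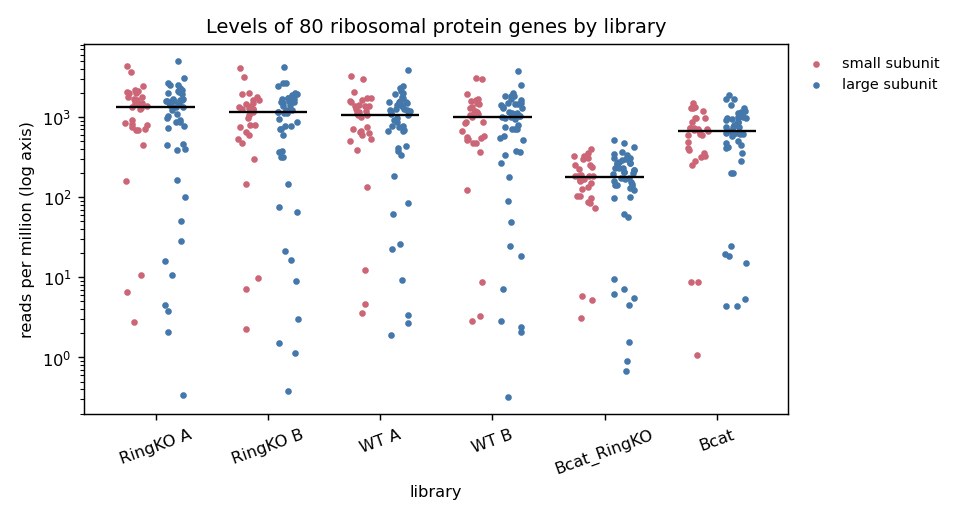
RPM, reads scaled to library size (log axis), of the 80 ribosomal protein genes in each of the 6 libraries, 1 point per gene, with the library's median as a black line; Rpl22 had no reads in WT A and in Bcat and is not drawn there. The medians are 1345 and 1163 in RingKO, 1074 and 990 in WT, 177 in Bcat_RingKO and 672 in Bcat, with a separate group of low members in every library.

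A second group of 11 members was far lower, with WT means of 1.38 to 242 normalized reads: Rpl19, Rpl22, Rpl26, Rpl30, Rpl31, Rpl34, Rpl35a, Rpl38, Rps24, Rps27 and Rps27a. The 4 lowest per kilobase in WT were Rpl22 at 0.077, Rpl31 at 2.63, Rpl26 at 4.09 and Rps27a at 5.01. Rpl22 had 1 and 3 reads in RingKO, 0 and 2 in WT, 7 in Bcat_RingKO and 0 in Bcat. In RefSeq, 10 of these 11 genes have several transcripts, against 11 of the other 69 members. For Rps27, which sits on the small subunit, the entry is a noncoding RefSeq transcript. How the authors counted reads that fit several transcripts is not given in the sources used here, so these entries do not give the level of the whole gene. Ribosomal protein genes also have many near-identical processed copies in the genome, and reads may have been shared or lost between them. The 3 members between the groups were the variant genes Rpl7l1, Rps27l and Rpl22l1.

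The starts of the genes were searched for the core of a TOP-like run, CTTTCC or CTTTTCC, on the gene's own strand in the 40 bases centred on the annotated RefSeq start. Of the 80 members, 60 had a promoter in the table, and 13 of these 60 (21.7%) held the motif, against 761 of 27025 genes (2.82%). It was found in 3 of 24 small subunit genes (12.5%) and 10 of 36 large subunit genes (27.8%). Among the nuclear genes for mitochondrial ribosomal proteins it was found in 2 of 69 (2.90%), and in the far 40 bases of the members' own promoters in 2 of 60 (3.33%). The windows below show the motif in capitals in genes among those with the highest RingKO over WT ratios (Rpl28 and Rps12, chosen after their values were seen) and in the largest ratio of the Bcat pair (Rps27), and a window without it for Rps28, Rplp0 and Rpl7l1, which are described further on. Sequences are RefSeq's on GRCm38.p6, another build than the mm9 of the files, and run 5′ to 3′ on the gene's strand.
Rpl28 (chr7:4792945-4792984, plus strand): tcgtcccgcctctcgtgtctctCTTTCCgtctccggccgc
Rps12 (chr10:23787190-23787229, minus strand): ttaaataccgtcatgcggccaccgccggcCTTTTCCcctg
Rps27 (chr3:90213629-90213668, minus strand): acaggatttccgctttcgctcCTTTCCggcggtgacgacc
Rps28 (chr17:33824543-33824582, minus strand): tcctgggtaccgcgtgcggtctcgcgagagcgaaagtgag
Rplp0 (chr5:115559447-115559486, plus strand): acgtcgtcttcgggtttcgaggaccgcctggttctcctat
Rpl7l1 (chr17:46782637-46782676, minus strand): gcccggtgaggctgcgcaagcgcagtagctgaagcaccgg
A match describes letters, not a start site in these cells. Among members with a WT mean of at least 1000, the median of the deposited log2 fold changes was 0.15 for the 9 with the motif and 0.12 for the 39 without it, and in the Bcat pair the medians were -1.94 and -1.97.

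The first comparison set the sorted RingKO cells beside the sorted WT cells. No member passed at an adjusted p under 0.05, the threshold applied to the authors' deposited table, where 4.9% of all entries passed (3.14% higher and 1.76% lower). The smallest adjusted p of a member in the authors' deposited table was 0.269, for Rps28. At an unadjusted p under 0.05 that table held 1 member, against 12.3% of all entries. edgeR's quasi-likelihood test on the recovered reads, with Benjamini-Hochberg adjustment, called 1 member higher (9.91% of tested entries) and none lower (2.95%), with 20 members at an unadjusted p under 0.05 (26.2% of entries). DESeq2 called 9 members higher (6.88% of entries) and none lower (1.89%), with 27 members at an unadjusted p under 0.05 (11.7% of entries).

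The levels leaned towards RingKO without passing the test. The authors' deposited log2 fold changes had a median of 0.12 over the 80 members, 0.13 in the small and 0.11 in the large subunit, and 63 were positive and 17 negative. Over the 66 abundant members the range was narrow, -0.13 to 0.43, with 56 positive and 10 negative. The other 783 entries with a WT mean of at least 1000 had a median of -0.28, and all entries one of 0.02. The 11170 entries tested by edgeR had a median of -0.17 as deposited. With edgeR's TMM scaling their median moved up by 0.17, to -0.01. That of the members was 0.29, so the members lay 0.30 above the median of tested entries. On that scale all 66 abundant members were positive (0.04 to 0.61), while 10 of them were negative with the authors' scaling.

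RingKO libraries did not overlap WT libraries in 26 members. Both RingKO libraries were above both WT libraries in 23 members, 28.75% of 80, against 19.3% of entries with a mean of at least 10. Both were below in 3, Rpl7l1, Rpl31 and Rpl34, against 44.4% of those entries. The members were not filtered by this mean, and the 23 include Rpl22, with means of 1.38 in WT and 4.29 in RingKO. All these counts use the authors' scaling, on which the entries tested by edgeR had a median log2 fold change of -0.17. In the other 54 the libraries overlapped. The libraries of RingKO differed from each other more than those of WT did. Over the 66 abundant members RingKO B was lower than RingKO A in 63, with a median log2 ratio of -0.33, and WT B was lower than WT A in 58, with a median of -0.11.

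Which library was in the fit set the number of calls. Without RingKO A, edgeR called 20 members higher (15.9% of entries) and 3 lower (11.0%). The 3 were Rps3a1, Rps4x and Rpl15. Without RingKO B it called 57 higher (11.0% of entries) and none lower (4.9%). The 2 fits shared 18 of the members called higher. Without WT A no member was called (4.4% of entries higher and 0.8% lower), with 2 at an unadjusted p under 0.05, and without WT B none was called (4.78% and 0.764%), with 0 at that level. In these fits the lone library of a group is assumed to vary like the pair of the other. All 3 genes called lower without RingKO A were called higher without RingKO B. For Rps3a1, a protein of the small subunit, the edgeR log2 fold change was -0.32 ± 0.11 without RingKO A (SE, adjusted p 0.0375) and 0.39 ± 0.11 without RingKO B (adjusted p 0.017). For Rps4x the edgeR values were -0.33 (adjusted p 0.0339) and 0.36 (adjusted p 0.0274), and for Rpl15 -0.31 (adjusted p 0.0481) and 0.35 (adjusted p 0.0321).

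**Figure D3:**
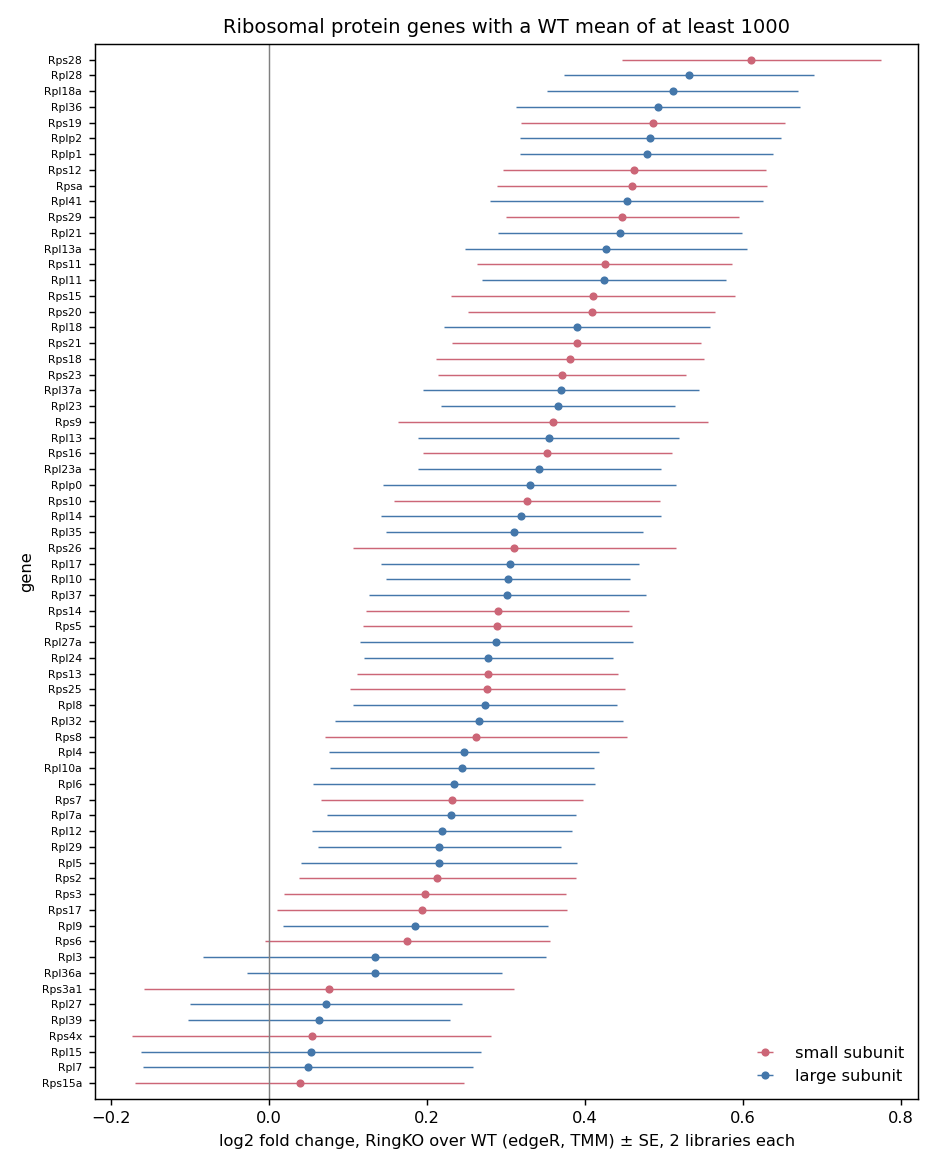
log2 fold change of RingKO over WT with its SE, from edgeR with TMM scaling on 2 libraries each, for the 66 ribosomal protein genes with a WT mean of at least 1000, ordered by value and coloured by subunit. All points lie between 0.04 and 0.61, small and large subunit genes are mixed along the order, and Rps28 at the top is the 1 gene called by this test.

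Rps28, named after its values were seen, had the highest log2 fold change among the 66 abundant members. It encodes a small protein near the messenger RNA exit of the small subunit. It had 3477 and 3719 normalized reads in RingKO, against 2894 and 2454 in WT. Both RingKO libraries were above both WT libraries, and RingKO B was the higher, as in 3 of the 66 abundant members. The edgeR log2 fold change was 0.61 ± 0.16 (SE, adjusted p 0.0479), and the authors' deposited value was 0.43 with an adjusted p of 0.269. The DESeq2 adjusted p was 0.00623. With 1 library left out, the edgeR adjusted p was 0.000714 without RingKO A, 0.00474 without RingKO B, 0.229 without WT A and 0.566 without WT B.

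The stalk proteins Rplp1 and Rplp2 and the small subunit protein Rpsa were among the higher ratios. Rplp1 had 8922 and 7484 normalized reads in RingKO, against 6705 and 6632 in WT. Rplp2, its partner in the stalk, had 4234 and 4328 in RingKO, against 3789 and 3160 in WT. Rpsa, known also as the laminin receptor precursor, had 17832 and 15477 in RingKO, against 13993 and 13439 in WT. In each of these the libraries were apart. The edgeR adjusted p was 0.0996 for Rplp1, 0.106 for Rplp2 and 0.132 for Rpsa, while DESeq2 called all 3 higher, with adjusted p-values of 0.0237, 0.0496 and 0.0251 in the same order. Rplp0, which anchors the stalk, had 20799 and 15892 in RingKO, against 16468 and 16547 in WT, and its groups overlapped. For Rpsa, Rplp0 and Rps2 the WT mean allowed more than 1 pair of whole reads, and the most even pair was used.

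Proteins with known signalling roles gave mixed values. Rpl11, which with Rpl5 can bind Mdm2 and stabilise p53, had 6497 and 5955 normalized reads in RingKO, against 5449 and 5069 in WT. Rpl5 had 9555 and 7298 in RingKO, against 8362 and 8056 in WT. Rps6, the substrate of the S6 kinases, had 8556 and 6242 in RingKO, against 7425 and 7388 in WT. The groups were apart for Rpl11 and overlapped for Rpl5 and Rps6. The edgeR adjusted p-values were 0.125 for Rpl11, 0.486 for Rpl5 and 0.586 for Rps6.

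Variant genes, which encode close relatives of a ribosomal protein, were set beside their partners. Rps27l, a p53 target, had 664 and 554 normalized reads in RingKO, against 575 and 544 in WT, and its partner Rps27 had 12.8 and 38.8 in RingKO, against 16.0 and 13.4 in WT. Rpl22l1, the relative of Rpl22, had 418 and 247 in RingKO, against 362 and 396 in WT. Rpl7l1 had 686 and 560 in RingKO, against 805 and 791 in WT. It was lower in both RingKO libraries, with a deposited log2 fold change of -0.36 and an adjusted p of 0.561 in the authors' deposited table. Rpl7, its partner, had 6977 and 4439 in RingKO, against 5946 and 6505 in WT, and the groups overlapped.

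Rpl3, near the catalytic centre of the large subunit, had 10433 and 6495 normalized reads in RingKO, against 8594 and 8812 in WT. Rpl10, which joins late and is needed for the subunits to meet, had 6758 and 5853 in RingKO, against 5846 and 5735 in WT. Rpl39, which lines the exit tunnel, had 1643 and 1208 in RingKO, against 1609 and 1471 in WT. X-linked Rps4x had 7382 and 4364 in RingKO, against 6157 and 6600 in WT. Of these 4 genes only Rpl10 had both RingKO libraries above both WT libraries, and none passed the authors' test, edgeR or DESeq2 with all libraries. The variant Rpl3l had 0 and 1 reads in RingKO and 2 and 1 in WT. Rpl39l and Rpl10l, also listed as variants, were not among the members.

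The pseudogene Rps4l went the other way from the members' median. It had 236 and 251 normalized reads in RingKO, against 408 and 420 in WT. It fell in both tests, with a log2 fold change of -0.76 and an adjusted p of 0.0329 in the authors' deposited table, and -0.59 ± 0.14 (SE, adjusted p 0.0329) with edgeR.

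The RingKO over WT ratio followed base composition within the set. Over the 66 abundant members the deposited log2 fold change had a Spearman correlation of 0.45 with transcript GC content and -0.27 with length. The 22 members of lowest GC content (41.3% to 49.5%) had a median of 0.06 with 5 members apart, the middle 22 a median of 0.11 with 7 apart, and the 22 of highest GC content (53.3% to 60.8%) a median of 0.19 with 10 apart. The ratio of RingKO B to RingKO A, which holds no genotype difference, had a correlation with GC content of 0.33 over the same genes, and that of WT B to WT A one of -0.28. In the 779 other entries of the same abundance and with a known length, the correlation with GC content was 0.26 for RingKO over WT and 0.44 for RingKO B over A. The part of base composition in the members' values was not tested.

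**Figure D4:**
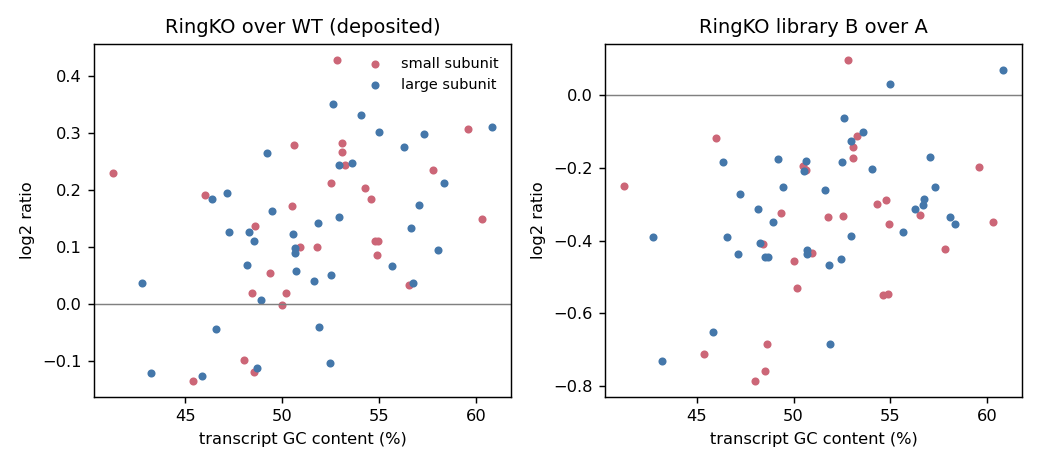
log2 ratio against transcript GC content (%) for the 66 ribosomal protein genes with a WT mean of at least 1000, on the left RingKO over WT from the authors' deposited table and on the right RingKO library B over library A. Both ratios tend to be higher at high GC content, with Spearman correlations of 0.45 and 0.33.

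Markers of cell types also differed between these libraries. The 5 Paneth genes listed summed to 9246 and 12702 RPM in RingKO, against 3981 and 2651 in WT, and the 5 stem genes to 4916 and 2300 in RingKO, against 6037 and 6888 in WT. The 4 goblet genes summed to 4402 and 7325 in RingKO, against 3922 and 4355 in WT. Of the 7 dissociation and stress genes the sum was 6059 and 9366 in RingKO, against 3189 and 4314 in WT. The 5 enteroendocrine genes summed to 754 and 912 in RingKO, against 1265 and 1543 in WT. The 6 enterocyte genes summed to 276 and 897 against 603 and 481, and the 3 tuft genes to 39.5 and 47.5 against 138 and 133. Genes within a list did not all move together. By deposited log2 fold change, Sct was higher (1.92), and Chga, Chgb, Tac1 and Gcg were lower (-0.57 to -4.45). Apoa1, Apoa4 and Fabp1 were higher (0.57 to 0.86), and Alpi, Fabp2 and Sis lower (-0.97 to -1.16). Of the goblet genes, Spink4 (1.46) and Tff3 (0.55) were higher, and Muc2 (-0.45) and Clca3 (-1.28) lower. Of the stem genes, Olfm4 (-1.25), Ascl2 (-1.18), Axin2 (-0.59) and Lgr5 (-0.36) were lower, and Smoc2 was at 0.06. Olfm4 had the most reads of the stem genes in every RingKO and WT library. Of the stromal genes, Vim was lower (-1.87), with 31 and 27 reads in RingKO, against 244 and 221 in WT. Col1a1 was higher (1.12), with 13 and 10 reads against 18 and 5, and Col3a1 was at -0.09. The 4 stromal genes summed to 18.5 and 15.1 in RingKO, against 41.6 and 37.6 in WT, and the 5 immune genes to 11.0 and 10.9 against 6.66 and 5.56, with Ptprc at 0 reads in both RingKO libraries and Pdgfra at 0 in both WT libraries. RingKO B, with a smaller ribosomal protein share than RingKO A, had the lower stem and the higher Paneth sum. In WT this was reversed: WT B, with a smaller share than WT A, had the higher stem and the lower Paneth sum. Between the groups, RingKO had the larger share with the lower stem and the higher Paneth sums. Their part in the members' values was not tested.

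Other genes of the translation machinery were described from lists. In the authors' deposited table no gene of these lists passed in either direction. The 17 translation factors and related genes with a TOP start had deposited log2 fold changes with a median of -0.17, with 5 positive. The 19 genes of ribosome biogenesis had a median of -0.35, with 1 positive, and the 76 mitochondrial ribosomal proteins a median of -0.25, with 7 positive. With edgeR the medians of these lists, in the same order, were 0.01, -0.17 and -0.08. edgeR called 1 gene of these lists, Rrp12, a factor in export of ribosomal subunits in yeast, which fell by 0.52 ± 0.13 on the log2 scale (SE, adjusted p 0.04, quasi-likelihood test). It had 311 and 312 normalized reads in RingKO, against 503 and 505 in WT.

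The second comparison set Bcat_RingKO beside Bcat, both with Ctnnb1-ex3, with 1 library on each side, so there is no replicate check and no test. Nearly all members were lower in Bcat_RingKO than in Bcat, by almost the same factor. At 2-fold or more, 75 of 80 members (93.75%) were lower, against 20.8% of all entries of that table, and 1 was higher, against 21.8% of all entries. The deposited log2 ratio had a median of -1.95, with quartiles of -2.02 and -1.83, and it was -1.99 in the small and -1.91 in the large subunit. All 66 abundant members were at least 2-fold lower. Entries in both tables had a median of 0.07, and those with a mean of at least 10 one of 0.33.

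The lowest ratio among members with at least 50 normalized reads was that of Rps3a1. It had 1334 reads in Bcat_RingKO and 1192 reads in Bcat, which is 597 and 2668 normalized reads, a ratio of 0.224 (exact 95% interval 0.207 to 0.242). The next were Rps20 at -2.13 on the log2 scale, Rpl32 at -2.13, Rplp1 at -2.10 and Rps19 at -2.09. Rps19, mutated in human Diamond-Blackfan anaemia, had 320 normalized reads in Bcat_RingKO and 1366 in Bcat. All 5 lie below the lower quartile of the members.

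Among members with at least 50 normalized reads in 1 library, the ratios nearest to no change were those of the variant genes Rpl7l1 and Rps27l and of 3 others. Rpl7l1 had 929 reads in Bcat_RingKO and 264 in Bcat, which is 416 and 593 normalized reads, a ratio of 0.704 (exact 95% interval 0.613 to 0.81). Its partner Rpl7 had 601 and 2433 normalized reads, a ratio of 0.247 (0.228 to 0.268). These intervals cover counting error alone, and the difference between the 2 ratios has no replicate check. The transcripts also differ in length, 2606 nt for Rpl7l1 and 1163 nt for Rpl7. Other entries with a WT mean of at least 1000 had a median log2 ratio of -0.19 over 2000 to 4000 nt. Over 1000 to 2000 nt it was -0.79. The part of length in this difference was not tested. Rpl34 had a log2 ratio of -1.45, Rps15a -1.46, Rps27l -1.56 and Rpl27 -1.69. Rps27l had 199 normalized reads in Bcat_RingKO and 584 in Bcat, a ratio of 0.341 (0.292 to 0.399), and Rpl22l1 had 123 and 411, a ratio of 0.298 (0.247 to 0.362).

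Several members described above for RingKO gave like ratios in the pair. Rps28 had 172 normalized reads in Bcat_RingKO and 669 in Bcat, a ratio of 0.258 (0.221 to 0.301). Rpsa had 789 and 3099, a ratio of 0.255, and Rplp0 had 851 and 3428, a ratio of 0.248. Rplp2 stood at 0.268, Rps2 at 0.239, Rpl41 at 0.245, Rpl11 at 0.255, Rpl5 at 0.250 and Rps6 at 0.245. Rpl3 stood at 0.272, Rpl10 at 0.269, Rpl39 at 0.243 and Rps4x at 0.253. These 13 ratios span 0.239 to 0.272. Other members described for RingKO lay outside that span. Among these were Rps3a1 at 0.224, Rplp1 at 0.234, Rpl15 at 0.278, Rpl22l1 at 0.298, Rps27l at 0.341 and Rpl7l1 at 0.704. Low members varied more: the 1 member past 2-fold higher was Rps27, with 26 reads in Bcat_RingKO and 1 read in Bcat, a ratio of 5.20 with an exact 95% interval of 0.854 to 213 that includes no change.

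Length moved with the ratio in the rest of the table. Over 779 other entries with a WT mean of at least 1000 the Spearman correlation of the log2 ratio with transcript length was 0.63, and over the 66 members it was 0.10. The 62 other entries of up to 1000 nt had a median log2 ratio of -1.54, and 83.9% of them were at least 2-fold lower, while the 45 members of that length had a median of -1.97. Over 1000 and up to 2000 nt the 187 other entries had a median of -0.79 and the 18 members one of -1.95. The 320 entries over 2000 and up to 4000 nt had a median of -0.19 and the 210 longer ones 0.54. The mean transcript length of a read was 3850 nt in Bcat_RingKO and 3195 nt in Bcat, with 3078 and 3121 nt in RingKO and 3204 and 3292 nt in WT. Other entries of up to 1000 nt took 3.87% of the reads of Bcat_RingKO and 7.13% of those of Bcat. The part of transcript length in the members' values was not tested.

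**Figure D5:**
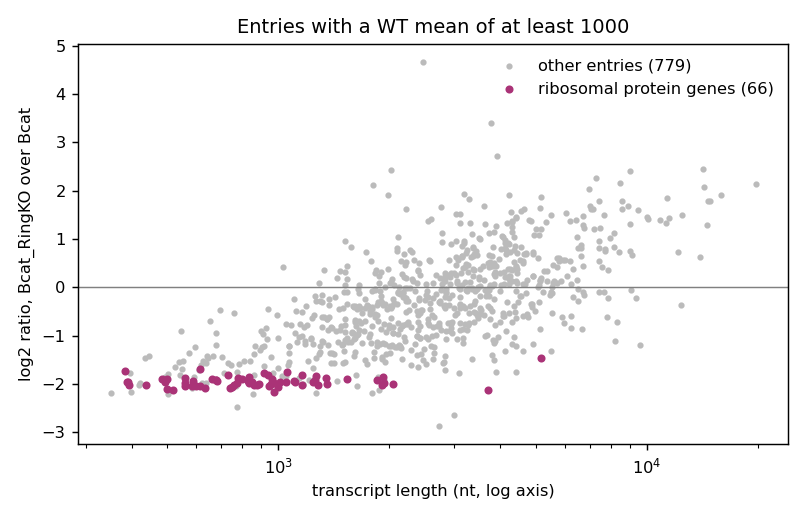
log2 ratio of Bcat_RingKO over Bcat against transcript length (nt, log axis) for entries with a WT mean of at least 1000, the 66 ribosomal protein genes in purple and 779 other entries in grey. The members lie mostly near -2, with 45 of them at up to 1000 nt, 18 over 1000 to 2000 nt and few longer. The longest, Rps15a at 5179 nt, lies at -1.46. The other entries run from a median of -1.54 at up to 1000 nt to 0.54 above 4000 nt.

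The lists of the translation machinery spread out in the pair. Of the 17 translation factors with a TOP start 11 were at least 2-fold lower and 2 higher, with a median of -1.24. The 2 higher were near the floor in Bcat: Naca had 45 reads in Bcat_RingKO and 1 in Bcat, and Eef1d 23 and 0. Eef1a1, which brings aminoacyl-tRNA to the ribosome, had 2901 reads in Bcat_RingKO and 2655 in Bcat, a log2 ratio of -2.19, and was named after its values were seen. Of 19 biogenesis genes 1 was at least 2-fold lower and 3 were higher, with a median of 0.24, and of 76 mitochondrial ribosomal proteins 8 were lower and none higher, with a median of -0.43.

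Marker sums differed in the pair as well. Stem genes summed to 2197 RPM in Bcat_RingKO and 3379 in Bcat, but the stem genes did not move together. Olfm4 had 2536 reads in Bcat_RingKO and 2093 in Bcat, and Ascl2 458 and 107. Lgr5 had 1505 and 146, Axin2 2882 and 346, and Smoc2 2441 and 424. Scaled to library size, Olfm4 and Ascl2 were lower in Bcat_RingKO, and Lgr5, Axin2 and Smoc2 were higher. Paneth genes summed to 1271 in Bcat_RingKO and 4492 in Bcat, enterocyte genes to 714 and 3945, and enteroendocrine genes to 434 and 1888. Goblet genes summed to 1324 in Bcat_RingKO and 1560 in Bcat, and tuft genes to 161 and 130. Muc2 and Sct were higher in Bcat_RingKO when scaled to library size, unlike the other goblet and enteroendocrine genes. Dissociation and stress genes summed to 3387 in Bcat_RingKO and 1087 in Bcat, stromal genes to 138 and 83.5, and immune genes to 27.5 and 42.3. Of the stromal genes, Vim had 608 reads in Bcat_RingKO and 60 in Bcat, Col1a1 9 and 8, and Col3a1 1 and 9. Scaled to library size, Vim was higher in Bcat_RingKO, and Col1a1 and Col3a1 were lower. The sums are set beside the members only. Their part in the members' values was not tested.

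Across the 2 tables, which the authors scaled separately, members can be set side by side as shares of library reads. The Bcat share was 0.677 times the mean share of WT, and the Bcat_RingKO share 0.152 times that of RingKO. With 1 library for each Bcat genotype, genotype and library cannot be told apart.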

How the data were processed

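RNA-seq of 6 libraries was used, grouped by sample title. Libraries were made with the TruSeq RNA v2 kit, per the labels' protocols, and TopHat, DESeq and the build mm9 are named in the submitters' processing notes. Information on the read counter, annotation, filters and strand is not given in the sources used here. The authors deposited normalized coverage (signal) per RefSeq entry, as group means for RingKO and WT and as single libraries for Bcat_RingKO and Bcat. The values show that 1 was added to each read count before division by a library size factor. The authors also deposited a fold (ratio) and its log2 value for both tables, and p-values and adjusted p-values for RingKO against WT, which served as the main test at an adjusted p under 0.05. Fold changes are on this scale and understate low genes.

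Because a group mean is a sum of whole reads over known factors, the reads of single libraries were recovered: 18365 WT values had 1 solution and 11 had more, and all 18376 RingKO values had 1. For 3 members with more, the most even pair was taken (library ratio 1.00 to 1.04, against 5.25 to 14.3 in the alternative). Tested on simulated data, recovery was wrong for 2 WT and 0 RingKO entries. Values of the Bcat pair were whole within 0.001. The recovered letters A and B cannot be matched to the labels' replicate numbers. Counts were tested with edgeR 4.0.16 (TMM, filterByExpr, quasi-likelihood, Benjamini-Hochberg over all tested entries; SE is the fold change over the root of F) and DESeq2 1.42.0, in R 4.3.3, both tried on simulated counts. edgeR tested 79 members, all but Rpl22. Normalized reads are on the authors' scale, and the Bcat pair is described by its deposited log2 ratio and by a ratio of scaled reads with an exact conditional binomial 95% interval. Lengths and GC content come from GENCODE transcripts matched by accession (80 of 80 members, 97.8% of entries).

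Members, gene lists and markers were chosen with earlier results of these data known. A list of ribosomal proteins outside the symbol rule is not reported here. Named genes are those called, the 4 highest and lowest per kilobase in WT, variants with partners, Rpsa, Rplp0, Rplp1, Rplp2, Rpl5, Rpl11 and Rps6, and the 5 highest and lowest ratios of the pair with at least 50 normalized reads in 1 library. Alternatives were other scalings, filters and tools, leaving out each library, and another fold threshold. Fits on RPM (scaled by library total) and the pair results for abundant members were added after seeing the data.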

Additional observations from a re-analysis of the deposited data

Results flagged for a closer look

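The share of library reads taken by the 80 ribosomal protein genes went opposite ways under the same Ring alleles. Both RingKO libraries were above both WT libraries (log2 ratio of the mean shares 0.27), and the Bcat_RingKO library was below the Bcat library (log2 ratio -1.89). The difference between the 2 log2 ratios was not tested, since each Bcat genotype has 1 library. In the Bcat pair, other entries of up to 1000 nt with a WT mean of at least 1000 were lower too, with a median log2 ratio of -1.54. The part of transcript length in the share was not tested.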

How the results depend on the processing

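With the authors' adjusted p no member was called higher. edgeR called 1 with TMM scaling and 1 with DESeq2 size factors, DESeq2 called 9, and leaving out 1 library gave 0 to 57 higher and 0 to 3 lower. The median log2 fold change of the members, 0.12 as deposited, was 0.29 with TMM scaling, 0.30 with DESeq2 size factors and 0.14 to 0.41 with 1 library left out. For small subunit genes it was 0.13 as deposited, 0.31 and 0.31 with these scalings and 0.16 to 0.44 with 1 library left out, and for large subunit genes 0.11 as deposited, 0.28, 0.29 and 0.14 to 0.41. The cause of these moves beyond the shift in scaling was not tested. The log2 ratio of shares, 0.27, lay between 0.16 and 0.36 with 1 library left out. In the Bcat pair, 2 members were higher at a threshold of 1.5-fold in place of 1, and the median of -1.95 was -2.16 with TMM scaling (which shifts all entries by -0.22), -1.90 in RPM and -1.97 over abundant members. The limit for a move was 1.5 times for counts, and the spread between libraries for medians and shares of RingKO against WT. For the median of the Bcat pair, which has no such spread, the limit was counting error alone, 0.017 on the log2 scale. In all, 33 of the recomputed values stayed within these limits, and 22 moved. None of these summary values changed direction.

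No paired analysis was possible because the deposited columns of the first table are group means, and the recovered libraries carry no replicate number, so the planned replicate block was not run. With 2 libraries a group, 1 library decides most calls here, and the Bcat pair has no estimate of the spread. The Bcat library had the fewest reads, which widens the intervals of low members.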
